A study of Mus with 4 samples.

Results

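The MHC class II genes were followed in PPS-ICBR cells, a cultured mouse prostate cancer line that the labels assign to the C57Bl6 strain, after an overnight exposure to the histone deacetylase inhibitor vorinostat. Cells given 5 µM vorinostat dissolved in DMSO (2 arrays) were compared with cells given DMSO alone, 5 µL in 10 mL of medium (2 arrays), both grown in DMEM with serum. Expression was read on 4 Affymetrix mouse arrays. The class II members were H2-Aa, H2-Ab1, H2-Eb1, H2-DMa, H2-DMb1, H2-Oa, H2-Ob, Cd74 and Ciita, and a probe set was counted as a member where the platform annotation gave it 1 of these symbols and no other. This gave 16 of the 45037 probe sets tested, for 8 of the 9 genes. H2-DMb1 had no probe set of its own, since both probe sets that list it also list H2-DMb2. Whether 2 arrays of a group stand for separate cultures is not stated in the labels, and the p-values reflect the spread between these arrays alone, which may be technical.

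MHC class II molecules are pairs of an alpha and a beta chain that carry peptides from endosomes to the cell surface, where CD4+ T cells read them. The invariant chain Cd74 fills the groove of new class II molecules and leads them to the endosome, the H2-DM pair then removes its last fragment so that peptide can bind, and the H2-O pair restrains H2-DM. Ciita is the coactivator that switches the class II promoters on; it does not bind DNA itself but docks on the RFX and NF-Y complexes and CREB, and interferon-gamma induces it in cells that are not professional antigen-presenting cells. C57BL/6 mice lack the I-E molecule because a deletion in the promoter region of H2-Ea silences that gene, so I-A, made of H2-Aa and H2-Ab1, is the classical class II molecule of the strain.

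With vorinostat, the peptide-exchange chain H2-DMa rose 3.86-fold and the invariant chain Cd74 rose 3.47-fold, while H2-Aa passed at none of its probe sets, H2-Ab1 passed at 1 of 3 and Ciita lay near the background of the array in both groups. Of the 16 class II probe sets, 3 were higher with vorinostat, 0 were lower and 13 did not pass an adjusted p of 0.05 (limma, adjusted over all 45037 probe sets). At an unadjusted p under 0.05, 5 were higher and 0 lower, a threshold at which no share over all probe sets is given. At the adjusted threshold 16.5% of all probe sets were higher and 15.7% lower. The number of class II probe sets called higher at that threshold is near what the whole array shows. By gene, with each gene read from its brightest probe set, 2 of 8 were higher and 0 lower, against 20.9% and 18.9% of the 18193 genes. The median log2 change was 0.07 over the 16 probe sets and 0.01 over all probe sets. The RNA was read in bulk, so a change in every cell and a change in a share of the cells cannot be told apart.

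A level is called near background here if, on each array of a group, it did not exceed the brightest Trpn control probe set by more than 1 log2 unit. That limit was 3.78 and 3.63 on the vorinostat arrays, against 3.54 and 3.75 on the DMSO arrays. By this measure 9 of the 16 class II probe sets were near background in both groups and 3 in DMSO alone, and 4 lay above the limit on all 4 arrays. Across the whole array 37.7% of probe sets were near background in both groups, and 6.26% of those passed the test. None of the 9 class II probe sets near background in both groups passed. The arrays of the groups did not overlap in 9 of the 16 class II probe sets, 7 of them higher and 2 lower with vorinostat, against 62.8% of all probe sets.

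**Figure D1:**
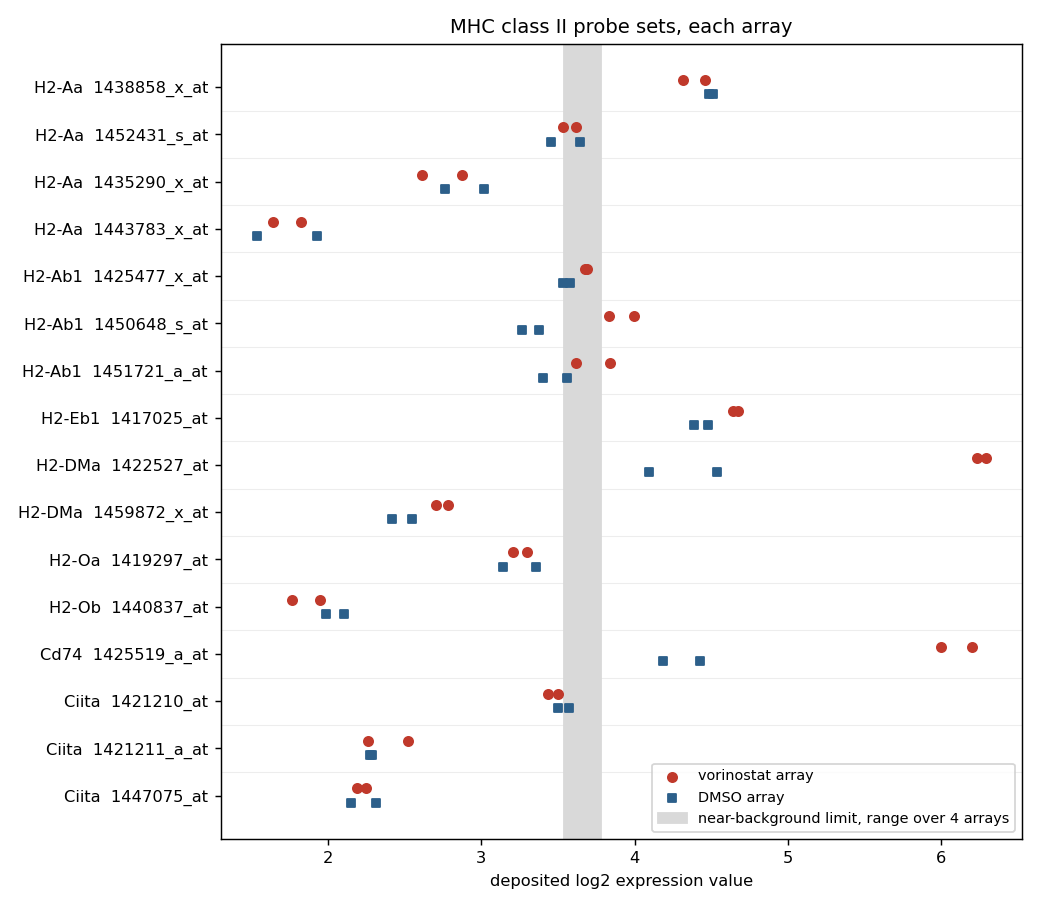
Deposited log2 value (x axis) of each of the 16 class II probe sets (rows, named by gene and probe set) on the 2 vorinostat arrays (circles) and the 2 DMSO arrays (squares), with the near-background limit of 3.54 to 3.78 as a grey band. H2-DMa 1422527_at and Cd74 stand apart between the groups, and the Ciita, H2-Oa and H2-Ob rows lie at or below the band.

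H2-DMa, the alpha chain of H2-DM, had log2 values of 6.29 and 6.24 on the vorinostat arrays, against 4.54 and 4.09 on the DMSO arrays (probe set 1422527_at). Both vorinostat arrays were above both DMSO arrays, and the DMSO pair was the more widely spread. The log2 change was 1.95 (SE 0.16, 95% confidence interval 1.55 to 2.35, adjusted p = 0.000757). It passed in all 10 alternatives tried, over a range of 1.73 to 2.32.

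A second H2-DMa probe set, 1459872_x_at, read 2.70 and 2.78 with vorinostat and 2.55 and 2.42 with DMSO. It was near background on all 4 arrays and did not pass (adjusted p = 0.0824), so the rise of H2-DMa rests on 1 probe set. The suffix x marks probe sets with probes that may bind unrelated transcripts. The probe sets that stand for H2-Aa (1438858_x_at) and H2-Ab1 (1425477_x_at) below carry it too.

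The beta chain of H2-DM, which is needed for a working exchange factor, could be read only through probe sets that also list its near copy H2-DMb2. The probe set 1449580_s_at had values of 4.63 and 4.29 with vorinostat, against 4.14 and 4.27 with DMSO, a log2 change of 0.26 (95% confidence interval -0.09 to 0.60, adjusted p = 0.229). The other, 1418638_at, lay near background in both groups and missed the threshold (adjusted p = 0.0514). These 2 probe sets cannot say which of the beta chain genes they measure.

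Cd74, the invariant chain, had log2 values of 6.20 and 6.0 with vorinostat, against 4.18 and 4.43 with DMSO (probe set 1425519_a_at, the only one for this gene). The groups did not overlap, and the gap between them was far wider than the gap within either pair. The log2 change was 1.80 (SE 0.12, 95% confidence interval 1.48 to 2.11, adjusted p = 0.000478), and it passed in all 10 alternatives over a range of 1.68 to 2.16.

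The beta chain of I-A, H2-Ab1, was the third class II gene with a called probe set, and its 3 probe sets did not agree on the call. Probe set 1450648_s_at read 4.0 and 3.83 with vorinostat and 3.26 and 3.38 with DMSO, a log2 change of 0.59 (SE 0.10, adjusted p = 0.00766). With its DMSO arrays near background, only a bound can be given, a rise of at least 1.21-fold. The call was lost without DMSO 1 (log2 change 0.54, adjusted p = 0.0757), without DMSO 2 (0.65, adjusted p = 0.053) and without Vorinostat 1 (0.51, adjusted p = 0.0669).

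The probe set that stands for H2-Ab1 by its mean level, 1425477_x_at, read 3.69 and 3.67 with vorinostat and 3.54 and 3.58 with DMSO and did not pass (adjusted p = 0.285). The third, 1451721_a_at, read 3.84 and 3.62 with vorinostat and 3.40 and 3.56 with DMSO (adjusted p = 0.17). In all 3 both vorinostat arrays lay above both DMSO arrays, as they did in 33.1% of all probe sets. The mean of the 3 passed when each gene was represented by the mean of its probe sets, which made 3 of the 8 class II genes higher.

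H2-Aa, the alpha chain that pairs with H2-Ab1, was not higher at any of its 4 probe sets. The brightest, 1438858_x_at, read 4.32 and 4.46 with vorinostat and 4.51 and 4.49 with DMSO, a log2 change of -0.11 (95% confidence interval -0.34 to 0.11, adjusted p = 0.408). The upper end of that interval is a 1.08-fold rise. The other 3 H2-Aa probe sets were near background in both groups, and their arrays overlapped between the groups.

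H2-Eb1, the beta chain of I-E, read 4.64 and 4.67 with vorinostat and 4.39 and 4.48 with DMSO. The groups did not overlap, but the log2 change of 0.22 (95% confidence interval 0.02 to 0.43) did not pass (adjusted p = 0.0992). It passed when only probe sets above the median level were tested (adjusted p = 0.0367), where 4 class II probe sets were left. H2-Ea, the alpha chain partner of H2-Eb1, read 6.63 and 6.60 with vorinostat and 6.57 and 6.88 with DMSO at its probe set 1422891_at. These values lay above the background limit on all 4 arrays, overlapped between the groups and did not pass (adjusted p = 0.561). Whether the probe set reads transcript of H2-Ea, which the strain is known to lack, was not tested.

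The H2-O pair, the inhibitor of H2-DM that is best known from B cells, was near background in both groups at each single-symbol probe set. H2-Oa read 3.30 and 3.21 with vorinostat and 3.14 and 3.36 with DMSO, with overlapping arrays (adjusted p = 0.992). H2-Ob read 1.95 and 1.77 with vorinostat and 1.98 and 2.11 with DMSO (adjusted p = 0.237). A further H2-Ob probe set, 1422201_at, which is also annotated to the noncoding Gm20506, read 3.84 and 4.0 with vorinostat and 3.88 and 3.85 with DMSO, just above the background limit on all 4 arrays, and did not pass either.

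Ciita, the class II coactivator, was near background at each of its 3 probe sets in both groups. The brightest, 1421210_at, read 3.43 and 3.50 with vorinostat and 3.50 and 3.57 with DMSO (adjusted p = 0.584). The second, 1421211_a_at, read 2.52 and 2.26 with vorinostat and 2.28 and 2.29 with DMSO, and the third, 1447075_at, read 2.19 and 2.25 with vorinostat and 2.15 and 2.31 with DMSO. The arrays of the groups overlapped in all 3, so a change of Ciita was not detectable with these probe sets.

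**Figure D2:**
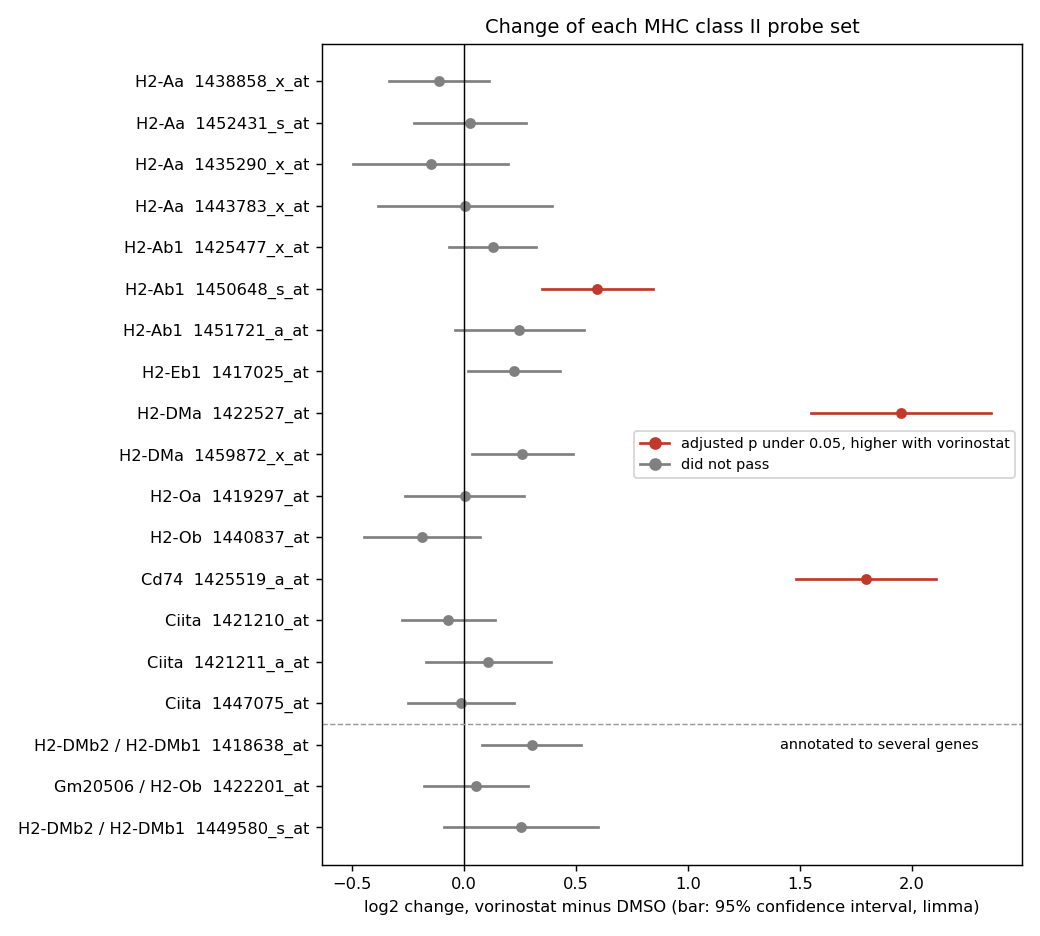
Log2 change, vorinostat minus DMSO, with its 95% confidence interval from limma for the 16 class II probe sets (above the dashed line) and the 3 probe sets annotated to a member and another gene (below it). Red marks an adjusted p under 0.05: H2-DMa at 1.95, Cd74 at 1.80 and 1 H2-Ab1 probe set at 0.59.

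The direction of small changes depended on how the arrays were scaled. When each array was shifted to a common mean of 7 reference genes, 13 of the 16 class II probe sets and 7 of the 8 genes were higher, as were 61% of all probe sets and 62.3% of all genes. Of all called probe sets 87.5% were higher under that scaling, against 51.3% on the deposited scale. That shift raised the median of all probe sets from 0.01 to 0.38, and it rests largely on Gusb (-1.42) and Polr2a (-0.75). Under it H2-DMa had a log2 change of 2.32 and Cd74 of 2.16, and the other 14 class II probe sets ran up to 0.96.

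The genes of the class II cluster were also read in their order along the chromosome. In RefSeq's mouse assembly GRCm38.p6, 14 genes lie from H2-Oa to H2-Eb1, 7 of them members, and 12 were measured. Among the 6 measured genes that are not class II members, 3 were higher, 1 lower and 2 did not pass. Over all genes 20.9% were higher and 18.9% lower. Tap2, a subunit of the transporter that feeds peptides to MHC class I, read 6.29 and 6.38 with vorinostat and 4.99 and 4.98 with DMSO, a rise of 1.36 (SE 0.08, adjusted p = 0.00035). The immunoproteasome subunit Psmb9 rose by 0.68 (SE 0.15, adjusted p = 0.0243), but missed the threshold when DMSO 1 (0.68), DMSO 2 (0.67) or Vorinostat 1 (0.46) was left out, and with the replicate number as a block (adjusted p = 0.0504). Psmb8, also a subunit of the immunoproteasome, rose by 0.50 (SE 0.11, adjusted p = 0.0195), and its call was lost in each of the 4 fits that left out an array (0.41 to 0.59) and with the replicate number as a block (adjusted p = 0.0689). Tap1, the other transporter subunit, changed by 0.52 (SE 0.16, adjusted p = 0.0566), and passed with the replicate number as a block (adjusted p = 0.0364). Its other probe sets did not pass. Of these, 1448177_at was above background on all 4 arrays and changed by -0.05 (SE 0.15, adjusted p = 0.863), with overlapping arrays.

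Brd2, a bromodomain gene between H2-Oa and H2-DMa, fell by 0.36 on the log2 scale (SE 0.09, adjusted p = 0.0335). Its call was lost in each of the 4 fits that left out an array (-0.44 to -0.28) and with the replicate number as a block (adjusted p = 0.0723), and its value was 0.01 under reference-gene scaling. On the deposited scale the other neighbour of H2-DMa, H2-DMb2, did not pass (-0.08, SE 0.08), and its value was 0.28 under reference-gene scaling (adjusted p = 0.0367). On the wider list of 10 measured genes of this region, which adds H2-Ea, H2-Eb2, Btnl2 and Notch4, 3 were higher, 1 lower and 6 did not pass, and without DMSO 1, DMSO 2 or Vorinostat 1 only Tap2 was higher.

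**Figure D3:**
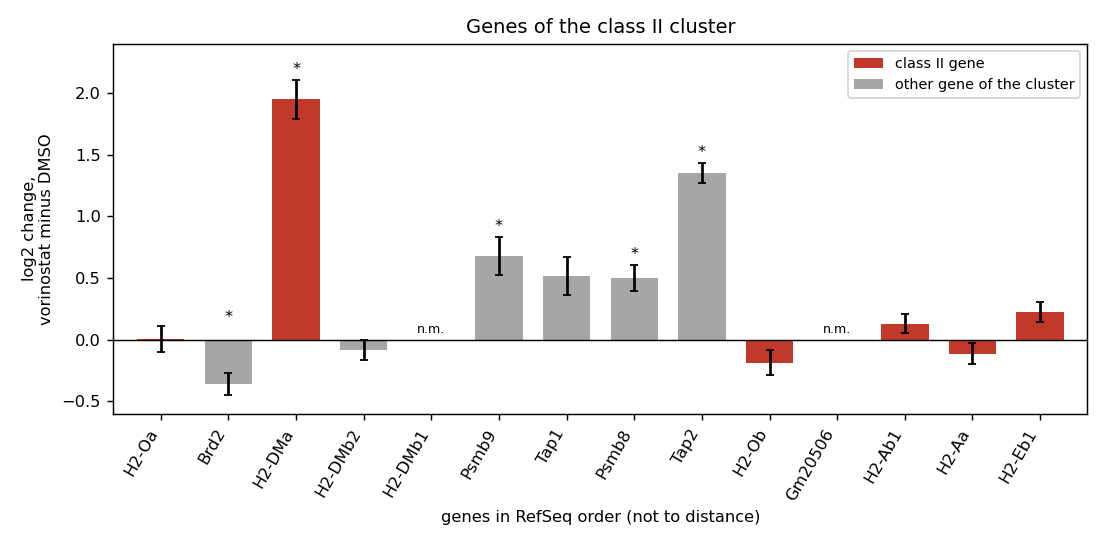
Log2 change, vorinostat minus DMSO (bars, with the SE as error bars), of the genes from H2-Oa to H2-Eb1 in RefSeq order, not to distance. Red bars are class II genes, grey bars the others, an asterisk marks an adjusted p under 0.05 and n.m. a gene with no probe set of its own. H2-DMa (1.95) and Tap2 (1.36) reach highest. Of the 4 measured genes between them, Psmb9 and Psmb8 passed and H2-DMb2 and Tap1 did not.

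The transcription list, which holds class II promoter factors and also receptors, kinases and other regulators, moved in both directions. Of its 22 measured genes, which include Ciita, 9 were higher, 9 lower and 4 did not pass, with a median log2 change of 0.05. Among all genes 20.9% were higher and 18.9% lower. The higher genes were Rfx5, Rfxank, Irf1, Jak1, Jak2, Ifngr1, Ifngr2, Nlrc5 and Prdm1, the last near background in both groups. The lower genes were promoter factors or their coactivators: Rfxap, Nfya, Nfyb, Nfyc, Creb1, Ep300, Crebbp, Kat2b and Carm1. In the RFX complex, which binds the X box, Rfx5 rose by 0.64 (SE 0.08, adjusted p = 0.00267) and Rfxank by 0.68 (SE 0.09, adjusted p = 0.00332), whereas Rfxap fell by 0.56 on the log2 scale (SE 0.08, adjusted p = 0.0056). Rfx5 read 6.98 and 7.03 with vorinostat and 6.37 and 6.36 with DMSO. For Rfxank another probe set also passed (0.70) and a further one did not (0.13). A second Rfxap probe set did not pass (0.09), and the Rfxap call was lost without DMSO 1 (-0.54), without Vorinostat 2 (-0.51) and under reference-gene scaling (-0.20).

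All 3 subunits of NF-Y, the complex that binds CCAAT boxes, were lower. Nfya read 7.05 and 7.28 with vorinostat and 8.43 and 8.34 with DMSO, a change of -1.22 (SE 0.11, adjusted p = 0.00097). Another Nfya probe set also passed (-1.10), and a further one, 1427808_at, did not (-0.32, SE 0.12, adjusted p = 0.116). Nfyc changed by -0.96 (SE 0.08, adjusted p = 0.000956) and Nfyb by -0.58 (SE 0.09, adjusted p = 0.00513). Nfyb did not pass without DMSO 2 (-0.54), without Vorinostat 2 (-0.54) or under reference-gene scaling (-0.22). The acetyltransferase Crebbp, which Ciita recruits, changed by -1.05 (SE 0.14, adjusted p = 0.00355) and did not pass without Vorinostat 1 (-0.96).

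On the interferon-gamma route to Ciita, the receptor chains Ifngr1 (0.39, SE 0.08) and Ifngr2 (0.51, SE 0.08) and the kinase Jak2 (0.43, SE 0.08) were higher. Without Vorinostat 1 none of the 3 passed (0.38, 0.48 and 0.39), and without DMSO 2 none did either (0.37, 0.49 and 0.40). Ifngr1 and Jak2 also missed the threshold without DMSO 1 (0.40 and 0.46) and without Vorinostat 2 (0.40 and 0.47). Irf1, which binds a promoter of Ciita, rose by 0.61 (SE 0.08, adjusted p = 0.00302), and the kinase Jak1 by 0.81 (SE 0.08, adjusted p = 0.00142). Nlrc5, the relative of Ciita that acts on class I promoters, read 4.84 and 5.04 with vorinostat and 4.0 and 3.84 with DMSO, a rise of 1.02 (SE 0.11, adjusted p = 0.00174). Without Vorinostat 1, 5 genes of the transcription list were higher in place of 9.

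Genes on the list for the invariant chain and antigen processing in endosomes were mostly higher. Besides enzymes the list holds the protease inhibitors Cst3 and Cst7 and the membrane proteins Lamp1 and Lamp2, of which Cst3 and Lamp2 were higher. Of 13 measured, 9 were higher, 0 lower and 4 did not pass, with a median log2 change of 0.55, and 6 to 7 were higher when single arrays were left out. At an unadjusted p under 0.05, 10 were higher and 0 lower. Among all genes, 20.9% were higher and 18.9% lower at the adjusted threshold. Lgmn, an asparaginyl endopeptidase that can cut the invariant chain, read 9.98 and 9.93 with vorinostat and 8.64 and 8.67 with DMSO. Its rise was 1.30 (SE 0.08, adjusted p = 0.000362). Ctsl, the cathepsin that cuts the invariant chain in thymic epithelium, rose by 0.58 (SE 0.08, adjusted p = 0.00372), and a second probe set of it by 1.85.

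The protease Ctsd rose by 0.91 (SE 0.08, adjusted p = 0.00103). Ifi30, the thiol reductase that opens disulphide bonds in antigen, rose by 0.55 (SE 0.09, adjusted p = 0.00845), but missed the threshold when DMSO 1 (0.50), DMSO 2 (0.59) or Vorinostat 1 (0.48) was left out. Ctss, the cathepsin that does the last cut in most antigen-presenting cells, was near background in both groups, at 2.59 and 2.35 with vorinostat and 2.22 and 2.43 with DMSO (adjusted p = 0.46).

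Partners of Cd74 outside antigen presentation also differed. Cd74 is a receptor for the cytokine Mif and its relative Ddt, with Cd44 as the signalling partner. Ddt read 10.3 and 10.3 with vorinostat and 8.38 and 8.37 with DMSO, a rise of 1.92 (SE 0.08, adjusted p = 0.000194), and Cd44 rose by 1.00 (SE 0.11, adjusted p = 0.00178). Mif read 12.0 and 12.1 with vorinostat and 12.6 and 12.6 with DMSO, a change of -0.58 (SE 0.08, adjusted p = 0.0035), which did not pass under reference-gene scaling (-0.21). Of 6 genes on this list 3 were higher, 1 was lower and 2 did not pass. Over all genes 20.9% were higher and 18.9% lower.

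Of 11 measured genes for the turnover and transport of class II molecules, 7 were higher and 2 lower. The shares among all genes were 20.9% higher and 18.9% lower. Of the 7, Arl14 (0.31, SE 0.09, adjusted p = 0.0493) was near background in both groups. The tetraspanins Cd81 (1.07, SE 0.08) and Cd82 (1.07, SE 0.08) rose most. The class II ubiquitin ligase family member Marchf8 (-0.47, SE 0.08, adjusted p = 0.00737) and the adaptor subunit Ap1m1 (-0.48, SE 0.11, adjusted p = 0.0259) were lower. A second Ap1m1 probe set did not pass (-0.23, SE 0.08, adjusted p = 0.0905). Leaving out any 1 array left 3 to 4 higher and 0 lower, with Marchf8 between -0.47 and -0.46 and Ap1m1 between -0.57 and -0.38. Of 6 co-stimulatory and checkpoint ligands, 0 passed in either direction by limma, adjusted or at an unadjusted p under 0.05, Cd80 having the smallest p (-0.18, SE 0.08, adjusted p = 0.149), and 5 of them were higher under reference-gene scaling, where Cd80 had a value of 0.19.

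**Figure D4:**
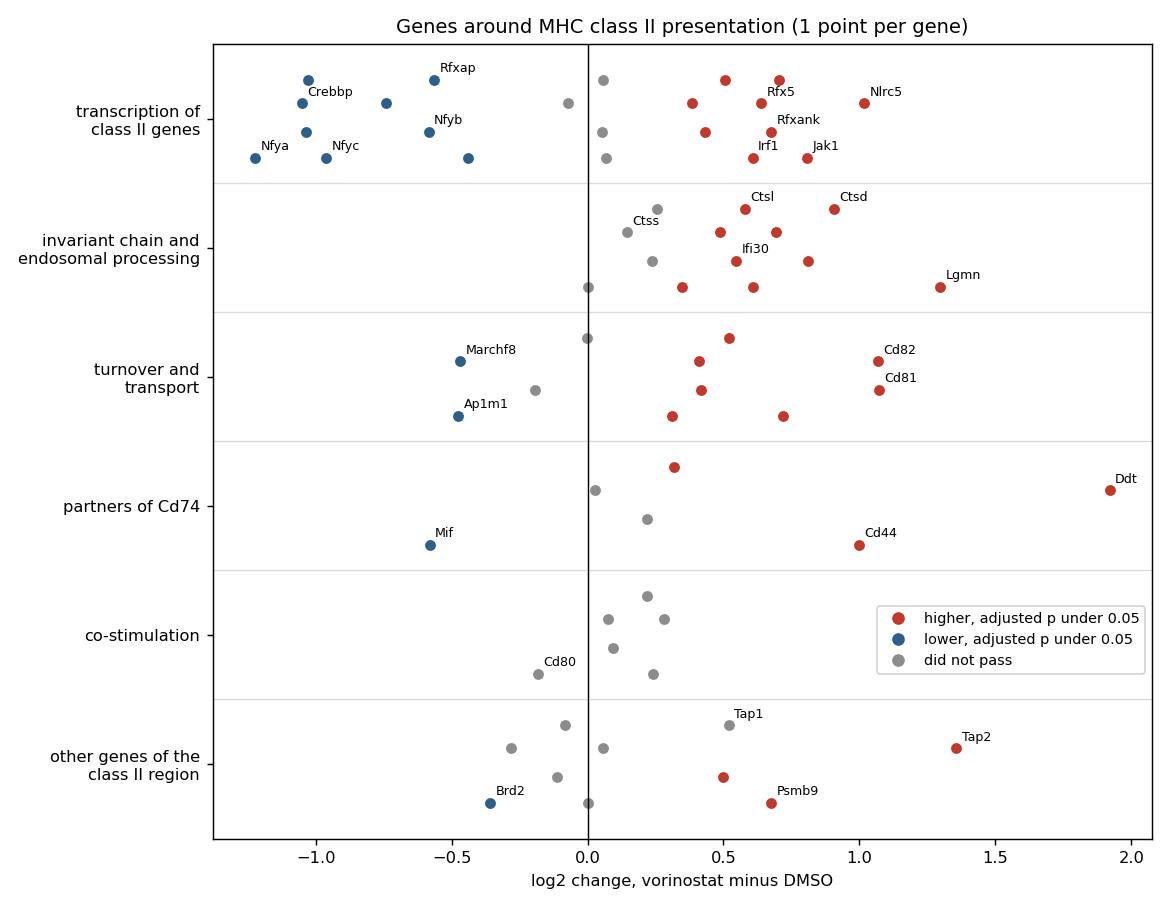
Log2 change, vorinostat minus DMSO (x axis), of 1 probe set per gene for 6 lists of genes around class II presentation (rows). Red and blue points are higher and lower at an adjusted p under 0.05 and grey points did not pass. Points of the transcription list lie on both sides of 0, with Nfya lowest at -1.22, and the endosomal list lies at or above 0, with Lgmn highest at 1.30.

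Professional antigen-presenting cells express class II genes strongly, so leukocyte markers were read beside them. Of 26 measured markers of B cells, dendritic cells, macrophages, T cells and all leukocytes, 2 were higher, 1 was lower and 10 were near background in both groups. Their summed linear level was 1629 and 1818 with vorinostat, against 1590 and 1623 with DMSO. Most of each sum came from 1 marker, the B cell adaptor Blnk. Without Blnk the other 25 markers summed to 535.7 and 568.1 with vorinostat, against 653 and 676.5 with DMSO. That lower sum with vorinostat came from Cd14, the brightest of the 25 with DMSO. Cd14 read 5.79 and 6.31 with vorinostat and 7.73 and 7.73 with DMSO, so the sum shows no general fall of leukocyte markers. The pan-leukocyte gene Ptprc was near background on all 4 arrays, at 2.29 and 2.12 with vorinostat and 2.26 and 1.99 with DMSO, as were Cd53 and Lcp1. Laptm5, on the same list, lay above the limit on all 4 arrays, at 5.21 and 4.94 with vorinostat and 5.21 and 5.40 with DMSO. So did Pax5 and Blnk from the B cell list and Itgax, Flt3 and Zbtb46 from the dendritic cell list, Itgax only just. Csf1r, Mertk and Cd14 from the macrophage list and Cd3e, Cd4 and Cd8a from the T cell list did too. The part of other cells in the class II values was not tested beyond this. Coro1a was at least 2.20-fold higher, its DMSO arrays being near background, Cd3e was higher (0.43, SE 0.09) and Cd14 was lower (-1.67, SE 0.18). Cd68, a lysosomal glycoprotein abundant in macrophages and chosen after its values were seen, read 9.29 and 9.24 with vorinostat and 4.53 and 4.70 with DMSO.

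The labelled cell type was also checked. The epithelial keratins Krt8 (11.1 and 11.4 with vorinostat, 12.3 and 12.4 with DMSO) and Krt18, and Epcam and Cdh1, were far above background, as was the prostate transcription factor Hoxb13 (8.75 and 8.82 with vorinostat, 8.24 and 8.24 with DMSO). Pbsn, a secretory product of the mouse prostate, was near background in both groups. Among fibroblast markers Col1a2 lay at 12.4 and 12.5 with vorinostat and 12.7 and 12.7 with DMSO, so collagen transcripts were present in both groups. Of the 6 epithelial markers 2 were higher and 1 lower, of 5 prostate markers 2 higher, of 6 fibroblast markers 2 higher and 1 lower, and of 5 endothelial markers 0 passed (1 was lower at an unadjusted p under 0.05).

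The genes nearest in pattern to the called members were found from the root mean square difference of the 4 values, each centred on its own mean, among 16250 genes. For H2-DMa they were Fas (0.04), Mlf1 (0.04) and Mctp1 (0.07), and for Cd74 they were Klhl28 (0.02), Map9 (0.04) and Lmbr1 (0.05). With 4 arrays in 2 groups this likeness is mostly a like size of the difference between the groups.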

How the data were processed

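The authors deposited log2 values, 1 for each probe set on each array, made with the Transcriptome Analysis Console and RMA per the submitters' processing notes. RMA by its definition subtracts background, equalises the arrays' distributions by quantiles and summarises probes in log2 units, which hides any shift common to every transcript. Array medians ran from 4.19 to 4.28, and the number of arrays limits the precision. The build behind the deposited values is not stated in the labels, so no coordinates are given, and RefSeq's GRCm38.p6 served only for gene names and gene order.

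Of 45101 probe sets, 64 controls were left out. Platform annotation gave 1 symbol to 34945 and several to 932, and 9160 were unnamed. By entrez ID, 34741 single-symbol probe sets matched RefSeq genes and 0 symbols changed. Vorinostat minus DMSO was tested with limma 3.58.1 in R 4.3.3 (lmFit, eBayes, two-sided, 3.26 prior degrees of freedom, Benjamini-Hochberg over 45037 probe sets, no filter, no block). Every adjusted p is from this fit unless a setting is named. A gene was read from its single-symbol probe set with the highest mean. On simulated data with 200 changed probe sets, 31 of 100 changes of 1 log2 unit and 65 of 100 of 2 units were recovered. In the real data 7440 probe sets were called higher and 7051 lower. The adjusted threshold was therefore stricter in the simulation, and its recovery rates need not hold for the real test.

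The members and lists were chosen with earlier results of these data known. All member probe sets are named, and for each list up to 4 genes past the threshold (the 2 largest rises and falls), or that with the smallest p, plus a preset group of 14 regulators and processing genes where measured. Ifngr1, Ifngr2, Jak2, Psmb8, H2-Ea, H2-DMb2, Cd68 and the markers named were picked after their values were seen. So were Prdm1, Creb1, Ep300, Kat2b, Carm1, Cst3, Cst7, Lamp1, Lamp2 and Arl14. Alternatives were a replicate block, each array left out, 2 scalings, a level filter, 2 variance models and gene means. An alternative that also counts probe sets of several symbols was chosen after seeing the data.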

Additional observations from a re-analysis of the deposited data

How the results depend on the processing

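The class II counts of 3 higher probe sets and 2 higher genes, and 0 lower, stayed within 1.5 times under every alternative run except scaling on 7 of the 9 listed reference genes (the other two had no single-symbol probe set), which gave 13 probe sets and 7 genes higher. That scaling adds 0.37 to every log2 change. It turned the sign for H2-Aa 1438858_x_at (0.26) and 1435290_x_at (0.22), H2-Ob (0.18), Ciita 1421210_at (0.30) and 1447075_at (0.36), Cd80 (0.19), H2-DMb2 (0.28), H2-Ea (0.25) and Brd2 (0.011). Scaling to a common median turned H2-Aa 1452431_s_at (-0.033) and 1443783_x_at (-0.057) and H2-Oa (-0.058). Leaving out single arrays gave log2 changes of both signs, from -0.068 to 0.12 for H2-Aa 1452431_s_at, from -0.19 to 0.20 for H2-Aa 1443783_x_at, from -0.11 to 0.11 for H2-Oa, from -0.021 to 0.24 for Ciita 1421211_a_at, from -0.094 to 0.071 for Ciita 1447075_at and from -0.27 to 0.046 for H2-Ea. Each of these but Brd2 did not pass in the reported comparison, and the cause was not tested. Without DMSO 1, DMSO 2, Vorinostat 1 or Vorinostat 2, 2 to 3 class II probe sets and 2 genes were higher, where 8.39% to 9.51% of all probe sets and 11.5% to 13.1% of all genes were. The groups share replicate numbers but nothing in the labels says that a number marks a shared culture, and the deviations of same-numbered arrays correlated at -0.06. With the number as a block, 3 class II probe sets were higher and 0 lower. Signal near background limits what can be said of Ciita and H2-Oa, and of H2-Ob at its single-symbol probe set.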
